A study of Mus musculus with 6 samples.

Results

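The 34 genes described here encode proteins of the cornified envelope and of the last steps of keratinocyte death, and they were measured in whole back skin of mice with and without an activated Nrf2 in the epidermis. They were chosen by name: 15 late cornified envelope (Lce) genes and 19 others that supply, cross-link or process the envelope. All 34 had a probe set on the array that the platform annotation gives to that gene alone, among 18193 genes measured in this way, and where a gene had several such probe sets the brightest on average stood for it. The control group was 3 female mice labelled K5cre-wt (tg/wt), and the other group was 3 female mice labelled K5cre-caNrf2 (tg/tg), here called caNrf2. The sample descriptions of both groups add the word weak, which they do not explain. In the latter a constitutively active Nrf2 is switched on by a Cre recombinase under the keratin 5 promoter, and the tg in both labels is read here as the Cre transgene that the groups share. Keratin 5 is made in the basal layer of the epidermis and in the outer hair follicle, so the cells that make the envelope are descendants of those in which Cre acts. All 6 animals came from 1 litter on a mixed FVB/N and C57BL/6 background, were taken at postnatal day 2.5, and gave 1 array each. The comparison asks whether transcripts of the envelope differ in skin with an always active Nrf2.

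The cornified envelope is a shell of cross-linked protein that replaces the plasma membrane of a dying keratinocyte. Envoplakin and periplakin form its first scaffold under the membrane, involucrin is added early, and loricrin, the small proline-rich proteins and the late cornified envelope proteins reinforce it, all joined by transglutaminases. Filaggrin gathers keratin filaments within the cell and is then broken down to small molecules that hold water, while corneodesmosin keeps the dead cells attached until they are shed. Many of these genes lie side by side in the epidermal differentiation complex, which on mouse chromosome 3 holds 21 of the 34 described here. The other 13 are spread over 8 further chromosomes.

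Medians of the arrays were 80.9 to 82.1 intensity units, but the RMA processing of the deposited values equalises array distributions, so these say little about the samples. Skin markers were bright on all arrays. Log2 intensities were 13.42 to 13.52 for the basal keratin Krt5, 14.25 to 14.33 for the suprabasal keratin Krt10 and 13.73 to 13.82 for the dermal collagen Col1a1. Nfe2l2, which encodes Nrf2, measured 9.36, 9.40 and 9.42 on the control arrays and 9.91, 9.75 and 9.75 on the caNrf2 arrays (log2 intensity). The difference, 0.41 ± 0.07 (SE), fell short of the 0.05 set for the adjusted p (0.0539 with limma), though the groups did not overlap, and whether the probes detect the transgene was not analysed here. Nqo1, a quinone reductase and standard Nrf2 target, rose by 3.61 ± 0.13, and its lowest caNrf2 value lay above its highest control value. The number of arrays, 3 a group, limits the precision.

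Transcripts of the cornified envelope were close to equal in control and caNrf2 skin. None of the 34 genes passed the threshold of 0.05 on the adjusted p (limma, Benjamini-Hochberg over all genes), where 0.374% of all genes tested did (0.346% higher and 0.0275% lower), and at an unadjusted p under 0.05 there was only 1 of 34, Tgm3, where 8.09% of all genes reached that mark. Differences (caNrf2 minus control, log2) ran from -0.13 for Lce3a to 0.25 for Tgm3, with a median of 0.02 against -0.01 over all genes. In 24 genes the estimate was above 0 and in 10 below, where of all 18193 genes 8582 were above and 9611 below. A difference of less than 0.1 in either direction was seen for 30 of the 34 genes, or 88.2%, and for 66.6% of all genes. Groups did not overlap for 2 genes, Tgm3 and Ppl, both higher in caNrf2 skin, where 6.23% of all genes were higher without overlap and 6.88% lower. These are amounts in whole skin, in which fewer cells of a type and less RNA per cell cannot be told apart.

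The intervals around these estimates set how large a difference the data allow. For all 34 genes the 95% interval of the fit lay inside a 1.5-fold change in either direction, as for 17897 of all 18193 genes. Bounds ran from 0.762 of the control level for Lce3a to 1.36-fold for Tgm3. For 30 genes the interval lay inside a 1.25-fold change, as it did for 73.6% of all genes. The 4 exceptions were Tgm3, Lce1l, Lce3a and Rptn. Intensities near the ends of the scale carry a limit of their own. Of the 34 genes, 14 lay among the brightest 1% of the 45037 probe sets, and Lor reached 14.21 to 14.30 on arrays whose brightest probe set read 14.31 to 14.38 (log2). Whether such signals were compressed was not tested.

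**Figure D1:**
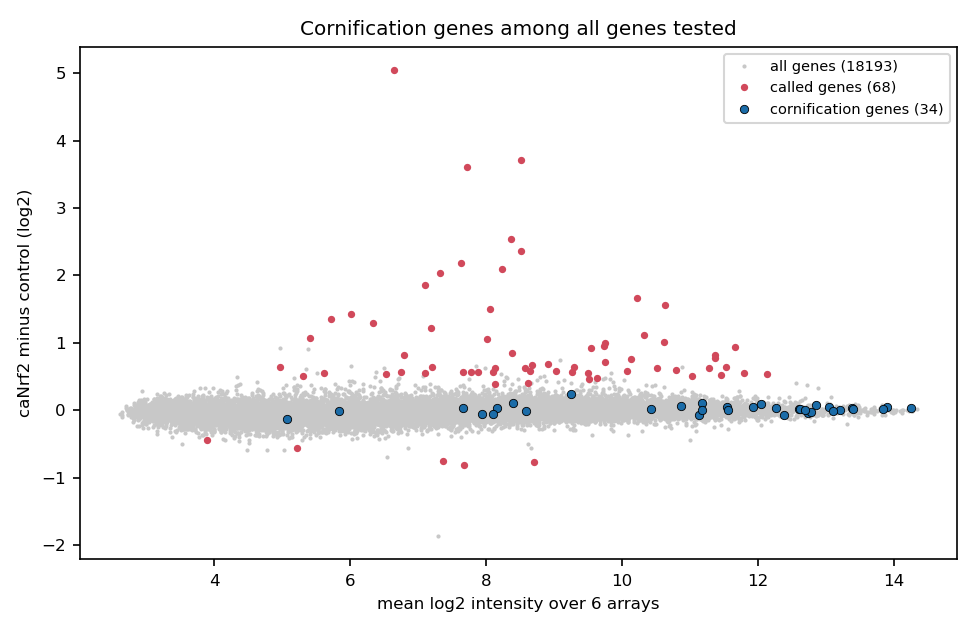
Each dot is a gene, with its mean log2 intensity over 6 arrays on the x axis and its caNrf2 minus control difference (log2) on the y axis. The 34 cornification genes lie between -0.13 and 0.25, mostly at the bright end, apart from the 68 called genes drawn in red.

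**Figure D2:**
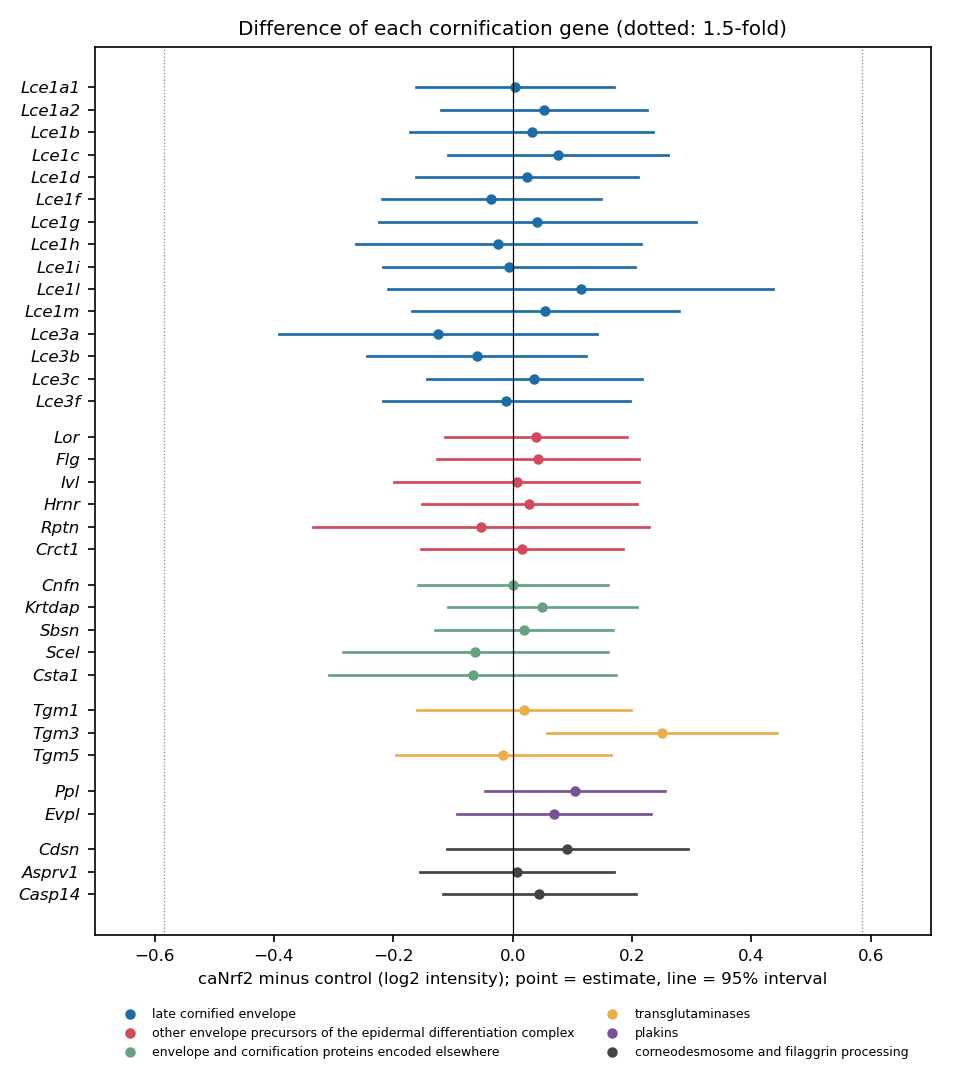
Points give the caNrf2 minus control difference (log2 intensity) of each of the 34 genes and lines its 95% interval, coloured by role; dotted lines mark a 1.5-fold change. Every interval lies inside the dotted lines, and that of Tgm3 alone excludes 0.

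Promoters of these genes were read from RefSeq (assembly GRCm38.p6) because Nrf2 acts through a short element, the antioxidant response element, and because AP-1 factors are known regulators of keratinocyte differentiation. Of the 34 genes 30 had a window in the table, from 250 bases before the transcript start to 50 from the start on, and Tgm1 and Cdsn had more than 1, which made 32 windows. The core letters TGACNNNGC, searched on both strands, were found in 5 of these 32 windows, of Lce1d, Lce3c, Casp14, Scel and Tgm5, and in 12.4% of 32851 windows of the whole table. The AP-1 letters TGANTCA were found in 7 of the 32, of Flg, Ivl, Krtdap, Lor, Rptn, Sbsn and Scel, and in 7.81% of all windows. Any base was allowed at N, while the usual AP-1 site has C or G there. Flg matched only as TGAATCA and Rptn only as TGATTCA. The share of all windows with C or G at N was not counted. None of the 14 Lce genes with a window held the AP-1 letters, and in 0 windows did the matches of these 2 motifs share a base. A match is a description of letters, not a site of binding.

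The stretches below show where these letters lie, each 120 bases long and read 5′ to 3′ on the gene's strand. The first 4 carry the response element core in capitals, and they are shown because Nrf2 is known to bind elements with this core. The match in Tgm5 lies past the start, at positions 12 to 20, and is not shown. Lce1d is from chr3:92687211-92687330 (minus strand), Lce3c from chr3:92944366-92944485 (plus strand) and Casp14 from chr10:78718294-78718413 (minus strand), each ending at the base before the transcript start. Scel is from chr14:103513101-103513220 (plus strand) and begins at position -240, where -1 is the base before the start.
Lce1d: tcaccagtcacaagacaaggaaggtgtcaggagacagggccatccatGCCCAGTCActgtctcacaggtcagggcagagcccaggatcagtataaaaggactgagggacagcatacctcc
Lce3c: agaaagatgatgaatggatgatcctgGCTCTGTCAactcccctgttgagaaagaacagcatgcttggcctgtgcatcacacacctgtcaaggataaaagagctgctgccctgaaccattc
Casp14: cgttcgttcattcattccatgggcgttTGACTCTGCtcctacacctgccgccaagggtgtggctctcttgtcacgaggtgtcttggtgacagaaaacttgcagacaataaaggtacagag
Scel: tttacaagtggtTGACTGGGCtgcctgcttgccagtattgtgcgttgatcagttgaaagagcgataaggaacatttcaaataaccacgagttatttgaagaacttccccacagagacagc
In Lce1d the capitals lie at positions -73 to -65, in Lce3c at -94 to -86, in Casp14 at -93 to -85 and in Scel at -228 to -220. Lce3c held a second match outside the stretch, at -172 to -164. The transcripts of these 4 genes differed between the groups by 0.02, 0.04, 0.04 and -0.06 (log2), none past the threshold.

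Lor and Krtdap are shown next with the AP-1 letters in capitals, as genes of the same program that lack the response element core in this window, and Tgm3 and Lce1m with the TATA box letters TATAAA, which 9 of the 32 windows and 13.6% of all windows held on either strand. Lor is from chr3:92083143-92083262 (minus strand), Krtdap from chr7:30787785-30787904 (plus strand), Tgm3 from chr2:130012220-130012339 (plus strand) and Lce1m from chr3:93019062-93019181 (minus strand), all ending at the base before the start.
Lor: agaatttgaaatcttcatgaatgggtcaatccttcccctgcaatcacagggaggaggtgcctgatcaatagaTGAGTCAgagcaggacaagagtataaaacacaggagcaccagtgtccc
Krtdap: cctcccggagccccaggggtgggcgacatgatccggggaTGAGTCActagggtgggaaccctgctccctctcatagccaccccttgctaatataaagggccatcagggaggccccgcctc
Tgm3: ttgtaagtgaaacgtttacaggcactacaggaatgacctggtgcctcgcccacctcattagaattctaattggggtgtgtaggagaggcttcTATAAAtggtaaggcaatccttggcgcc
Lce1m: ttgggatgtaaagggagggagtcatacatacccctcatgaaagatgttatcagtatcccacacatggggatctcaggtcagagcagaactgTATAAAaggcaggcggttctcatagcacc
The AP-1 letters lie at positions -48 to -42 of Lor and -81 to -75 of Krtdap, and the TATA box letters at -28 to -23 of Tgm3 and -29 to -24 of Lce1m. The window of Tgm3 held no response element core, and bases further from the start were not searched for any gene. The letters AACCNGTT (Grainyhead factors), TTGCNNAA (C/EBP factors) and GGGTGTG (Klf4), also searched on both strands, were in 2, 7 and 4 of the 32 windows and in 2.09%, 10.8% and 7.95% of all windows.

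Transglutaminases form the bonds that join the envelope's proteins, and among them Tgm3 stood out in size though not past the threshold. Tgm3, the enzyme that acts in the cytosol of late keratinocytes and in hair, measured 9.29, 9.01 and 9.04 on the control arrays and 9.40, 9.34 and 9.36 on the caNrf2 arrays (log2 intensity). The 3 caNrf2 values lay close together and above all controls, of which control array 1 came within 0.05 of them. The difference was 0.25 ± 0.09 (SE), a 1.19-fold level with a 95% interval of 1.04 to 1.36 (adjusted p = 0.472). A second, dimmer Tgm3 probe set differed by 0.21 ± 0.08, again without overlap of the groups (adjusted p = 0.465 in the fit of all probe sets). Without control array 1 the difference was 0.34, and without control array 2 it was 0.20.

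Tgm1, the membrane-bound transglutaminase whose loss causes lamellar ichthyosis, measured 10.44, 10.38 and 10.42 in control and 10.31, 10.57 and 10.42 in caNrf2 skin. Its caNrf2 arrays straddled the controls, with array 1 lowest and array 2 highest of all 6, and the difference was 0.02 ± 0.08. Tgm5, which acts in earlier layers, differed by -0.02 ± 0.08. Its log2 intensities ran from 8.55 to 8.66 in control and from 8.49 to 8.72 in caNrf2 skin.

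Both plakins, the scaffold of the envelope, had estimates above 0. Ppl, which encodes periplakin, measured 11.11, 11.14 and 11.10 in control and 11.22, 11.27 and 11.18 in caNrf2 skin, so that the groups did not overlap. The distance between them was small, with a difference of 0.10 ± 0.07 (SE) and adjusted p = 0.745. Evpl, which encodes its partner envoplakin, measured 10.79, 10.86 and 10.83 in control and 10.86, 10.997 and 10.84 in caNrf2 skin. Here the groups overlapped, and only caNrf2 array 2 stood above the controls (difference 0.07 ± 0.07, adjusted p = 0.869).

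The large precursors of the epidermal differentiation complex did not differ beyond the spread between animals. Lor, which encodes loricrin, the main protein of the mature envelope, measured 14.25, 14.22 and 14.23 in control and 14.21, 14.30 and 14.30 in caNrf2 skin (difference 0.04 ± 0.07, adjusted p = 0.926). Control values of Lor spanned less than the caNrf2 values, among which array 1 was below every control. Flg, which encodes profilaggrin, measured 13.34, 13.43 and 13.31 in control and 13.43, 13.31 and 13.48 in caNrf2 skin, with the groups interleaved (0.04 ± 0.08, adjusted p = 0.929). Ivl, which encodes involucrin, measured 11.31, 11.09 and 11.11 in control and 11.26, 11.03 and 11.25 in caNrf2 skin. Each group covered nearly the same range, and the difference was 0.01 ± 0.09 (adjusted p = 0.995).

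Other members of this group were as close. Hrnr, which encodes hornerin, a relative of filaggrin, differed by 0.03 ± 0.08, and Crct1, a small cysteine-rich protein gene between the Lce3 genes and Lce1m, by 0.02 ± 0.08. Rptn, which encodes the fused S100 protein repetin, had the widest spread of the group, from 7.94 to 8.41 in control and from 7.88 to 8.18 in caNrf2 skin, and differed by -0.05 ± 0.13. Control array 1 held the highest value of both Rptn and Ivl.

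Genes of envelope and cornification proteins encoded on other chromosomes gave the same picture, with a median of 0.001 over 5 genes. Krtdap, a small secreted protein of suprabasal keratinocytes, measured 13.87, 13.88 and 13.86 in control and 13.85, 13.91 and 14.01 in caNrf2 skin (difference 0.05 ± 0.07, adjusted p = 0.905). The controls lay within 0.02 of each other, and caNrf2 array 3 alone was well above them. Sbsn, which encodes suprabasin, an envelope substrate, measured 13.87, 13.81 and 13.80 in control and 13.82, 13.85 and 13.86 in caNrf2 skin (0.02 ± 0.07). Cnfn, the gene of the envelope protein cornifelin, differed by 0.001 ± 0.07, the smallest size of the 34.

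Estimates for the remaining genes of this group were below 0. Scel, which encodes sciellin, a precursor found at the edge of the envelope, ran from 11.13 to 11.21 in control and from 10.97 to 11.34 in caNrf2 skin, with array 1 above and arrays 2 and 3 below all controls (-0.06 ± 0.10). Csta1, which encodes a cystatin A that inhibits cysteine proteases and is built into the envelope, ran from 12.33 to 12.53 in control and from 12.19 to 12.60 in caNrf2 skin (-0.07 ± 0.11). Here caNrf2 arrays 1 and 2 lay below and array 3 above every control.

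Genes that process filaggrin or hold corneocytes together overlapped between the groups as well. Casp14, the caspase of cornification that helps to break down filaggrin, measured 11.59, 11.53 and 11.44 in control and 11.61, 11.55 and 11.53 in caNrf2 skin (difference 0.04 ± 0.07, adjusted p = 0.920). Asprv1, the skin aspartic protease that cuts profilaggrin, measured 13.23, 13.24 and 13.14 in control and 13.18, 13.29 and 13.17 in caNrf2 skin (0.01 ± 0.07, adjusted p = 0.994). For both genes the caNrf2 values lay in or next to the range of the controls. Cdsn, which encodes corneodesmosin, measured 11.999, 12.04 and 11.95 in control and 11.93, 12.27 and 12.07 in caNrf2 skin. Its caNrf2 values spread from below to well above the controls, and the difference was 0.09 ± 0.09 (adjusted p = 0.855). It was 0.0026 without caNrf2 array 2 and 0.17 without caNrf2 array 1.

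**Figure D3:**
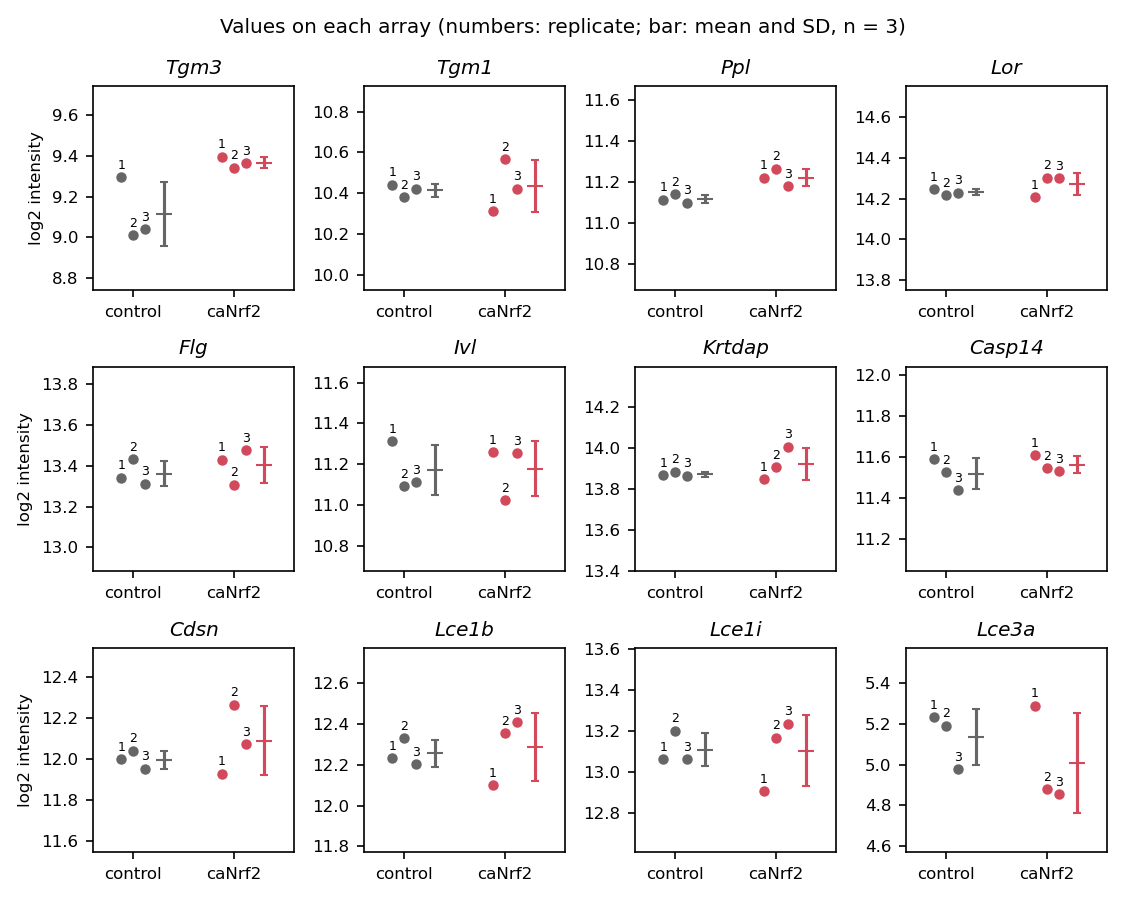
Log2 intensity of 12 of the genes on each array, numbered by replicate, with control in grey, caNrf2 in red and the group mean and SD (n = 3) beside the points; every panel spans 1 unit. Tgm3 and Ppl separate the groups, and in the others the points of the groups overlap.

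Late cornified envelope genes, small proteins rich in cysteine, serine and glycine that are added last to the inner face of the envelope, had a median difference of 0.02 over 15 genes, 9 above and 6 below 0. The Lce1 genes belong to the normal upper epidermis, and all 11 were measured. Lce1a1 measured 12.66, 12.78 and 12.61 in control and 12.64, 12.68 and 12.74 in caNrf2 skin, a difference of 0.003 ± 0.07. Lce1b measured 12.23, 12.33 and 12.20 in control and 12.10, 12.35 and 12.41 in caNrf2 skin, a difference of 0.03 ± 0.09. In both genes control array 2 was the highest control and caNrf2 array 1 the lowest of its group, an order that returned in most of the family.

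Lce1c measured 12.77, 12.92 and 12.74 in control and 12.78, 12.91 and 12.97 in caNrf2 skin (difference 0.08 ± 0.08, adjusted p = 0.872). Lce1l, which had the largest positive estimate of the family, measured 8.30, 8.53 and 8.19 in control and 8.16, 8.42 and 8.78 in caNrf2 skin (0.11 ± 0.15, adjusted p = 0.888). Its caNrf2 values ran from below to above all controls, and without array 3, the only one above every control, the difference was -0.05. Lce1m measured 11.82, 11.998 and 11.86 in control and 11.73, 12.04 and 12.08 in caNrf2 skin (0.05 ± 0.10). Over the 11 Lce1 genes the differences ran from -0.04 for Lce1f to 0.11 for Lce1l, 8 of them above 0.

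Of the Lce3 genes, known in human skin for their rise after injury and in psoriasis, 4 were measured. Lce3a measured 5.23, 5.19 and 4.98 in control and 5.29, 4.88 and 4.85 in caNrf2 skin (difference -0.13 ± 0.12, adjusted p = 0.847). Lce3a and Lce3f, at 5.67 to 5.96, were the only members below the median probe set of 6.34, while 3 Y-linked genes, silent in these females, read 2.94 to 3.95. Lce3b measured 7.85, 8.05 and 8.02 in control and 8.01, 7.88 and 7.84 in caNrf2 skin (-0.06 ± 0.08, adjusted p = 0.901). Lce3c measured 8.18, 8.20 and 8.03 in control and 8.07, 8.19 and 8.26 in caNrf2 skin (0.04 ± 0.08). Arrays 2 and 3 of the caNrf2 group were below every control for Lce3a but not for Lce3c, so the 4 genes did not share 1 order.

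The Lce1 genes moved together from animal to animal, and this pattern was singled out after the values were seen. Relative to the control mean, the 11 genes averaged -0.02, 0.10 and -0.07 on control arrays 1 to 3 and -0.15, 0.08 and 0.15 on caNrf2 arrays 1 to 3 (log2). On caNrf2 array 1 every Lce1 gene was the lowest of its group, as were 40.6% of all genes, and 8 of the 11 were the lowest of all 6 arrays, as were 25.6% of all genes. Control array 2 was the highest control for 10 of the 11, against 34.7% of all genes. Without caNrf2 array 1 the median of the 15 Lce genes was 0.10, and without caNrf2 array 3 it was -0.03. None of the 15 passed the threshold in either case.

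Along the chromosome, not every measured gene between Lce1l and Lce1m followed the pattern. From Lce1a1 to Lce1l the 10 Lce1 genes measured lie next to each other in the order of the measured members, the 4 Lce3 genes and Crct1 come next, and Lce1m lies beyond them. On caNrf2 array 1 Lce1m had a value of -0.16 relative to its control mean, like its family. Lce3a, Lce3b and Lce3f were 0.15, 0.04 and 0.11 above their control means, whereas Lce3c was at -0.07 and Crct1 at -0.06. Lce3a and Lce3f lay below the median probe set, which limits what their values show, while Crct1 was bright, with a mean of 13.40. Related transcripts can share probes: 7 of the 15 Lce probe sets are of the kinds marked _x_at or _s_at, which may bind several transcripts, and values of single Lce genes are uncertain to that extent. Among the 6 Lce1 genes with a plain _at probe set, caNrf2 array 1 was the lowest of its group in 6 and averaged -0.14 relative to the control mean. These genes are part of the pattern singled out above, and whether their probe sets also bind related transcripts was not tested.

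**Figure D4:**
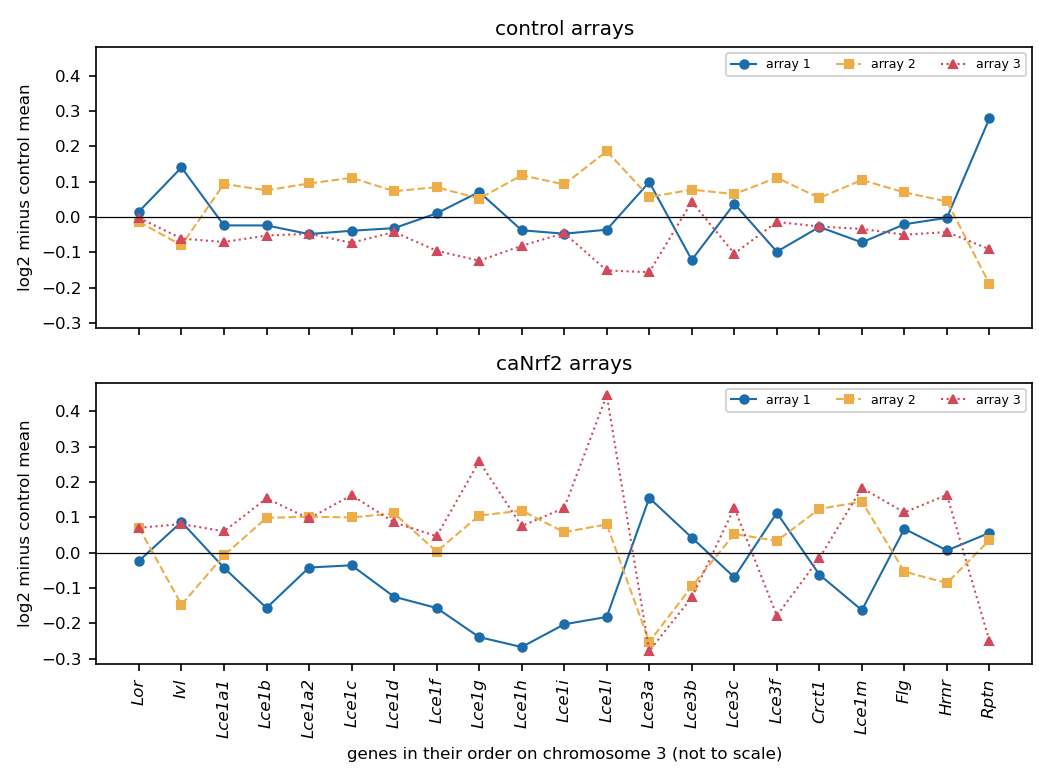
The 21 members of the epidermal differentiation complex are drawn in their order on chromosome 3 (x axis, not to scale), with each array's log2 intensity minus the control mean of that gene on the y axis and 1 line per array. The Lce1 genes sit low on caNrf2 array 1 and high on caNrf2 array 3, while Lce3a, Lce3b and Lce3f, between them and Lce1m, sit the other way round and Lce3c does not.

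Markers of other cells in the skin also differed among the caNrf2 arrays. All 11 listed hair follicle markers were measured. They averaged 0.13, -0.0048 and -0.33 relative to the control mean on caNrf2 arrays 1 to 3, and their summed level ran from 15.61 to 15.64 in control and from 15.33 to 15.80 in caNrf2 skin (log2). All 6 skeletal muscle markers were measured too, with averages of -0.10, 0.04 and 0.14 and summed levels of 15.68 to 15.74 and 15.64 to 15.80. The 7 basal keratinocyte markers averaged -0.0043, 0.11 and 0.0093, with summed levels of 15.09 to 15.14 and 15.10 to 15.19. The 3 melanocyte markers, all measured, averaged 0.09, -0.01 and -0.26, with summed levels of 12.97 to 13.04 and 12.76 to 13.07. All 5 leukocyte markers had estimates below 0, with a median difference of -0.11 and summed levels of 11.58 to 11.69 and 11.52 to 11.67. The 3 endothelial markers, all measured, were also below 0, with a median of -0.12 and summed levels of 9.64 to 9.76 and 9.54 to 9.66. Among the listed markers, groups did not overlap for the endothelial Cdh5 (-0.17 ± 0.08, adjusted p = 0.615), the leukocyte Cd207 (-0.11 ± 0.07) and the basal Itga6 (0.12 ± 0.07). Of all genes, 6.88% were lower and 6.23% higher without overlap. Of 5 adipocyte markers 3 were measured. They averaged 0.27, -0.18 and -0.09 on control arrays 1 to 3 and -0.12, -0.05 and 0.06 on the caNrf2 arrays, with summed levels of 14.15 to 14.25 and 14.16 to 14.20. The control averages rest mostly on Lep, which lay below the median probe set of 6.34 and read 6.14, 4.99 and 5.04. The bright Adipoq read 12.91, 12.71 and 12.83 on these arrays and Fabp4 13.46, 13.48 and 13.58. Of 7 dermal fibroblast markers 6 were measured, with a median of -0.0040 and summed levels of 16.07 to 16.12 and 16.08 to 16.12, and of 3 Schwann cell markers 1, with a difference of -0.01. No marker of these lists passed the threshold, and their part in the Lce1 pattern was not tested.

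Spread between animals was larger in caNrf2 skin for most of the genes. The SD over 3 arrays was larger in caNrf2 than in control skin for 27 of 34 genes, or 79.4%, where it was larger for 68.2% of all genes. Its median was 0.11 in caNrf2 and 0.08 in control skin (log2), against 0.11 and 0.07 over all genes. Tgm3 was one of the exceptions, with an SD of 0.03 in caNrf2 and 0.16 in control skin.

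Further probe sets existed for 9 of the 34 genes, 12 in all, and none passed the threshold in the fit of all probe sets. For 4 genes, Casp14, Lce1a1, Lce1f and Lor, a further probe set had the opposite sign, by sizes of at most 0.04. The second probe set of Lor, also bright at 13.51 to 13.61, differed by -0.01 ± 0.07, and the second of Ivl by 0.08 ± 0.10. Besides Tgm3, a further Sbsn probe set kept the groups apart, at a difference of 0.03 ± 0.07.

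Genes that work with the envelope were counted from 5 lists. Of 25 listed transcriptional regulators of terminal differentiation 23 were measured, and 1 rose, Ppard, which encodes a nuclear receptor for fatty acids that promotes keratinocyte differentiation (0.346% of all genes were called higher). Ppard measured 8.38, 8.32 and 8.34 in control and 8.84, 9.07 and 8.90 in caNrf2 skin, a 1.51-fold rise (0.59 ± 0.08, adjusted p = 0.00858). Without control array 1, 2 or 3 the difference was 0.61, 0.58 and 0.59, close to that over all arrays, while the adjusted p no longer passed the threshold (0.0517, 0.0672 and 0.0571). A dimmer Ppard probe set, at 5.21 to 5.67, differed by -0.0036 ± 0.12. The list had a median of 0.05, with 15 genes above 0.

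The other 4 lists held no called gene. Of 45 listed neighbours in the epidermal differentiation complex, small proline-rich and S100 genes among them, 25 were measured, with a median of -0.05 and 15 below 0. The 3 with the smallest p, Sprr2h, Sprr2d and Sprr1b, differed by 0.30, 0.25 and -0.50 (adjusted p = 0.238, 0.504 and 0.506). Sprr1b passed the threshold without control array 3, its only low control (-0.75, adjusted p = 0.0406). Of 18 enzymes of filaggrin processing and desquamation 17 were measured, with a median of 0.02. Capn1, a calpain, and Blmh, a peptidase that acts on filaggrin fragments, were higher without overlap by 0.33 ± 0.08 (adjusted p = 0.275) and 0.20 ± 0.07 (adjusted p = 0.530). Of all genes, 6.23% were higher without overlap. The kallikrein Klk5 differed by -0.12 (-0.06 without caNrf2 array 1, -0.20 without caNrf2 array 2 and -0.08 without control array 1).

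Lipids bound to the outer face of the envelope come from a pathway of which 17 of 18 listed genes were measured, with a median of 0.08 and 15 above 0. Cyp4f39, a hydroxylase of very long fatty acids, differed by 0.30 ± 0.07 (adjusted p = 0.204), and the ceramide synthase Cers3 and Sptlc2, a subunit of the first enzyme of the pathway, by 0.21 and 0.16. Further Sptlc2 probe sets differed by 0.03 and 0.01, and the mean of all of them by 0.07. Among the 18 suprabasal keratin and desmosome genes, all measured, the median was 0.04 and 14 were above 0. Krt77, a keratin of the upper epidermis, measured 10.48, 10.42 and 10.78 in control and 11.41, 11.33 and 10.86 in caNrf2 skin. The difference, 0.64 ± 0.14, did not pass (adjusted p = 0.163) but did so without caNrf2 array 3, which lay close to the highest control (0.81, adjusted p = 0.0141). Dsg1b, a desmosomal cadherin gene, differed by 0.25 ± 0.15, and by 0.15, 0.46 and 0.14 without caNrf2 array 1, 2 and 3. Krt2, at 3.01 to 3.37, read like the silent genes. Over the 5 lists, 4 of 23 regulators, 2 of 25 neighbours and 2 of 17 filaggrin and desquamation enzymes were higher without overlap. So were 4 of 17 lipid genes and 4 of 18 keratin and desmosome genes, against 6.23% of all genes, and 1 neighbour was lower without overlap. These counts were not tested.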

How the data were processed

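Linear intensities of each array's probe sets were deposited by the authors, who made them with RMA per the submitters' processing notes. RMA subtracts background, equalises array distributions and summarises the probes of a set. Of its software, version and filters, the sources used here give nothing. Such values hide a shift shared by most genes. The deposited intensities were converted to log2. Of 45101 probe sets 64 array controls were left out, and 34945 of the rest carry 1 gene symbol in the platform annotation, which gave 18193 genes. All 34 members matched the reference gene table by identifier. Columns of other series numbered 0.

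The contrast of caNrf2 with control was fitted by lmFit and eBayes (limma 3.58.1, R 4.3.3) without block or covariate. That left 4 residual degrees of freedom, and p-values were adjusted over all genes by Benjamini-Hochberg, with a threshold of 0.05. The fit was run on data simulated from its own variance model, with equal spread in both groups. Such data cannot show how the larger spread among caNrf2 arrays affects it. Replicates are separate animals. Arrays with the same number did not pair (correlations of deviations -0.195, -0.032 and 0.036). The members and lists were chosen with earlier results of these data known. By rule, all 34 members could be named. Values on every array were given for the 8 members with the smallest p and for leads of each role. Of each pathway list the called genes, or else the 3 with the smallest p, were named. Alternatives were a replicate block, median centring, quantile normalization, a filter on low values, other choices of probe set, an intensity trend, robust eBayes, log2(value + 16), and leaving out each array. Sequences and gene order came from RefSeq tables of assembly GRCm38.p6.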

Additional observations from a re-analysis of the deposited data

How the results depend on the processing

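None of the 34 genes passed the threshold under any of the 15 alternatives in which it was fitted (the filter on low values left out Lce3a and Lce3f). The smallest adjusted p was 0.234, for Lce3a without caNrf2 array 1 (difference -0.27). The number of called genes over the whole array was 68, and 41 to 89 when single arrays were left out (41, 43 and 45 without control array 1, 2 and 3). With replicate number as a block it was 61, with 0 members called, and the block changed no call of a member, Nfe2l2, Nqo1 or a named pathway gene. The median difference of the members stayed between 0.0034 and 0.0623, and that of the Lce genes between -0.0267 and 0.0970. The sign held for 12 members under all alternatives that fitted them, Tgm3 (0.20 to 0.34) and Ppl (0.0762 to 0.1258) among them. Leaving out single arrays moved the other 10 as well: Cdsn 0.0026 to 0.1712, Evpl 0.0201 to 0.0983, Flg 0.0067 to 0.0905, Krtdap 0.0069 to 0.0860, Casp14 0.0040 to 0.0806, Sbsn 0.0067 to 0.0398, Lce1a2 0.0271 to 0.0996, Lce1c 0.0318 to 0.1310, Lce3a -0.2652 to -0.0489, Lce3b -0.1206 to -0.0212. With plain probe sets Sbsn was 0.1087. With quantile normalization Sbsn was 0.0016 and Casp14 0.0004, so close to 0 that their sign says little.

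For the other 22 members, all uncalled, the sign turned under at least 1 alternative. With median centring the differences were -0.0042 for Lce1a1, -0.0007 for Ivl, -0.0064 for Cnfn and -0.0008 for Asprv1. With quantile normalization they were -0.0120 for Lce1a1, 0.0370 for Lce3f, -0.0185 for Ivl, -0.0331 for Cnfn and -0.0062 for Tgm1. With the mean of all probe sets they were -0.0134 for Lce1a1 and 0.0037 for Lce1f, and with plain probe sets -0.0299 for Lce1a1 and -0.0134 for Lor. Leaving out single arrays gave ranges that cross 0: Lce1a1 -0.0321 to 0.050, Rptn -0.1475 to 0.0869, Lce1f -0.0832 to 0.0248, Lce1h -0.0961 to 0.0970, Lce1i -0.0724 to 0.0922, Lce3f -0.0725 to 0.0728, Ivl -0.0333 to 0.0837, Lce1g -0.0671 to 0.1814, Lce3c -0.0150 to 0.0896, Cnfn -0.0397 to 0.0250, Tgm5 -0.0850 to 0.0295, Asprv1 -0.0340 to 0.0298, Csta1 -0.1895 to 0.0124, Lce1b -0.0291 to 0.1257, Lce1d -0.0197 to 0.0982, Crct1 -0.0390 to 0.0539, Tgm1 -0.0479 to 0.0797, Lce1l -0.0511 to 0.2624, Lce1m -0.0093 to 0.1636, Hrnr -0.0401 to 0.0846, Scel -0.1804 to 0.0030. The cause was not tested. Ppard was 0.29 with the mean of its probe sets (adjusted p = 0.299). Nfe2l2 passed the threshold with the filter, the intensity trend and log2(value + 16) (adjusted p = 0.0249, 0.0171 and 0.0333). It did not under the other alternatives, among them the mean of its probe sets (0.33, adjusted p = 0.243) and leaving out control array 1 (0.40, adjusted p = 0.292). A dimmer Nfe2l2 probe set, at 4.14 to 4.85, differed by 0.24 ± 0.14, with the groups overlapping. Low signal limits Lce3a and Lce3f, and Lor lies close to the top of the scale.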
